A study of Mus musculus with 2 samples.

Results

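The Slc25 genes encode the mitochondrial carriers, and they were described here in the adrenal gland of the young mouse. Members were taken by annotation alone: every protein-coding gene of GENCODE M21 whose symbol is Slc25a followed by a number. The rule found 47 members among 55536 annotated genes, and no measured value was used to choose them. The tissue came from male B6Cast F1 mice (strain B6CASTF1/J), hybrids of the inbred strains C57BL/6J and CAST/EiJ, at 10 days of age, untreated as far as the labels say. Total RNA, 300 ng per sample with added ERCC spike-ins (synthetic transcripts), gave 1 library for each of 2 biological replicates, which form a single group. The labels number the animals 3 and 4 in one place, name the same male in both library descriptions and carry 1 donor identifier, so the libraries may share an animal. No condition was compared with another, and the spread between the libraries has no p-value.

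Mitochondrial carriers sit in the inner membrane, which is otherwise closed to most metabolites. Each is a small protein built from repeats of paired membrane helices and works by alternating access, taking a substrate from one side and usually returning another. They pass ADP and ATP, phosphate, carboxylic acids, amino acids, acylcarnitines, cofactors and iron. In the adrenal cortex the first and several later steps of steroid synthesis take place on the inner mitochondrial membrane and draw on reducing power made in the matrix. A few relatives sit elsewhere, among them a peroxisomal carrier and an outer-membrane protein.

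The following sequences show a stretch in which related members differ, a pair of alternative exons and the promoters of a pair of members. The ADP/ATP carriers share a signature of arginines and methionines, RRRMMM, which a search of the complete coding sequences found in 3 of the 47 members. The stretches below are 66 coding bases around it, from the GENCODE M21 transcripts, with the 18 signature bases in capitals.

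Slc25a4: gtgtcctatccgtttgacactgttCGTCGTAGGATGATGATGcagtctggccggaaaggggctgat

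Slc25a5: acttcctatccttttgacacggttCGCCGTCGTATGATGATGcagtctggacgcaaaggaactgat

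Slc25a31: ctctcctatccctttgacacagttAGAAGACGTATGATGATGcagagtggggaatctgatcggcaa

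Between Slc25a4 and Slc25a5, 12 of these 66 bases differ. Slc25a31 differs from Slc25a4 at 26 and from Slc25a5 at 25. Over the whole aligned coding sequence, Slc25a5 and Slc25a4 were 77.4% identical, and each was 61.2% identical to Slc25a31.

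The phosphate carrier gene Slc25a3 holds a pair of mutually exclusive coding exons. Exon A, the upstream one, is known from the form of heart and skeletal muscle, and exon B from the form found in all tissues. Both are shown 5′ to 3′ on the transcript, from the GENCODE M21 transcripts (mm10, minus strand), with the bases that differ or are unmatched in an alignment of the 2 exons in capitals. Exon A lies at chr10:91122207-91122331 and has 125 bases, and exon B lies at chr10:91121922-91122043 and has 122. They were 61.6% identical.

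Exon A: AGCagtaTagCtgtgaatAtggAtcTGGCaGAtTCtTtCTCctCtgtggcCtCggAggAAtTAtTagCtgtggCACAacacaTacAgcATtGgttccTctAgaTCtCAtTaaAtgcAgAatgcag

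Exon B: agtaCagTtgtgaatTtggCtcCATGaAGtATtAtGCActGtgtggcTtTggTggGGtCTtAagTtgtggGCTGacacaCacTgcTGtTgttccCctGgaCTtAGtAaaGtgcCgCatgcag

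The promoters of Slc25a47 and Slc25a34 are given as well. Among members with a mean of at least 100 counts, these 2 differed most between the libraries, 1 in each direction. They come from the RefSeq promoter table (GRCm38.p6) and run from 250 bases before to 50 after the annotated start. Capitals mark matches, on either strand, to 6 motifs. They are the GC box GGGCGG and the CCAAT box with those letters. They also include the TATA box, searched as TATAAA, and the E-box, searched as CACGTG. The cyclic AMP response element was searched as TGACGTCA. The half-site of SF1 and ERR factors was searched as AAGGTCA. Slc25a47 lies on the plus strand, with the promoter at chr12:108850879-108851178. Slc25a34 lies on the minus strand, with the promoter at chr4:141623785-141624084.

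Slc25a47 promoter: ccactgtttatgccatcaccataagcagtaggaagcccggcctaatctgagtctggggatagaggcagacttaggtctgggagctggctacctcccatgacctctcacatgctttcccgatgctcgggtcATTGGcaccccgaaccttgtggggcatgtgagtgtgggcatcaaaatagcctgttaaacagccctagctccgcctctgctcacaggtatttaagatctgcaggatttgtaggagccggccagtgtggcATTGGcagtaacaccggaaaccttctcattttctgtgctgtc

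Slc25a34 promoter: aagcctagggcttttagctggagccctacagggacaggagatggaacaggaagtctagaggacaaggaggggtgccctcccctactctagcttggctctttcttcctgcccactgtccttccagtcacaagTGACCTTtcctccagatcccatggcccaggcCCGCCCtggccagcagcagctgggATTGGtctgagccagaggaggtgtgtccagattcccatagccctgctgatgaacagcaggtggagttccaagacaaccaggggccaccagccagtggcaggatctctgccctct

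The table held 46 starts for 36 of the members. The GC box was found at 38 of those 46 starts, against 35.7% of all 32851 listed starts of the same length. Among the 36 genes, only Slc25a12, Slc25a13, Slc25a18, Slc25a21, Slc25a47 and Slc25a54 had no GC box in any listed window. The TATA box was found at 2 starts, those of Slc25a18 and 1 start of Slc25a21, against 13.6% of all. CCAAT stood at 22 member starts and 37.4% of all starts, and the E-box at 8 member starts and 7.15% of all. The AAGGTCA half-site was found at 1 member start, that of Slc25a34, against 4.72% of all starts. The response element TGACGTCA was found at 2, in 1 of the 3 starts of Slc25a25 and in Slc25a36, against 1.79%. The median GC content was 59.3% for member starts and 52.7% for all starts. These matches are letters in a window and were not tested for binding.

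The libraries held 36982665 and 38984236 expected counts (replicate 1 and replicate 2, in this order throughout). All 10 cortex markers and all 8 chromaffin cell markers were detected, so the tissue carried both parts of the labelled gland. Markers of other tissues were detected as well, and where their RNA came from was not tested. The 8 hepatocyte markers summed to 3713 and 11572 TPM (transcript abundance per length, scaled to a fixed total over all entries), with none at 0, and each was more than 2-fold higher in replicate 2. The 7 skeletal muscle markers summed to 321 and 873 TPM and were likewise all more than 2-fold higher. The 7 brown adipocyte markers summed to 3483 and 3076 TPM. Kidney tubule markers and testis germ cell markers were detected in 0 of 6 cases each, a level of at least 1 TPM in both libraries counting as detected. In bulk tissue, fewer cells of a type and less RNA per cell cannot be told apart.

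Of the 47 carriers, 39 were detected in both libraries, beside 56.7% of the 22015 nuclear protein-coding genes. A total of 27 carriers reached 10 TPM in both libraries and 5 reached 100 TPM, and neither count was made for all coding genes. The median carrier stood at 13.3 and 13.8 TPM, and the median nuclear protein-coding gene at 2.26 and 2.49 TPM. Among detected coding genes that median was 9.58 and 9.74 TPM. Summed over the family, carriers took 1631 and 1629 TPM, 0.503% and 0.476% of all nuclear protein-coding TPM. The 5 most abundant carriers, Slc25a3, Slc25a5, Slc25a51, Slc25a20 and Slc25a39, held 57.9% and 53.5% of the family sum. In the order of mean levels the 7 highest carriers were each separated from the next by more than their spread over the libraries. Further down, neighbours mostly were not: 23 of 38 neighbouring pairs of detected carriers overlapped. In a second transcript table, made directly from the reads, Slc25a39 had 289.6 and 259 TPM. There it lay above Slc25a20 (220.1 and 201 TPM) and Slc25a51 (220.4 and 173 TPM), whose ranges overlapped. The order among these carriers thus depended on the table.

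**Figure D1:**
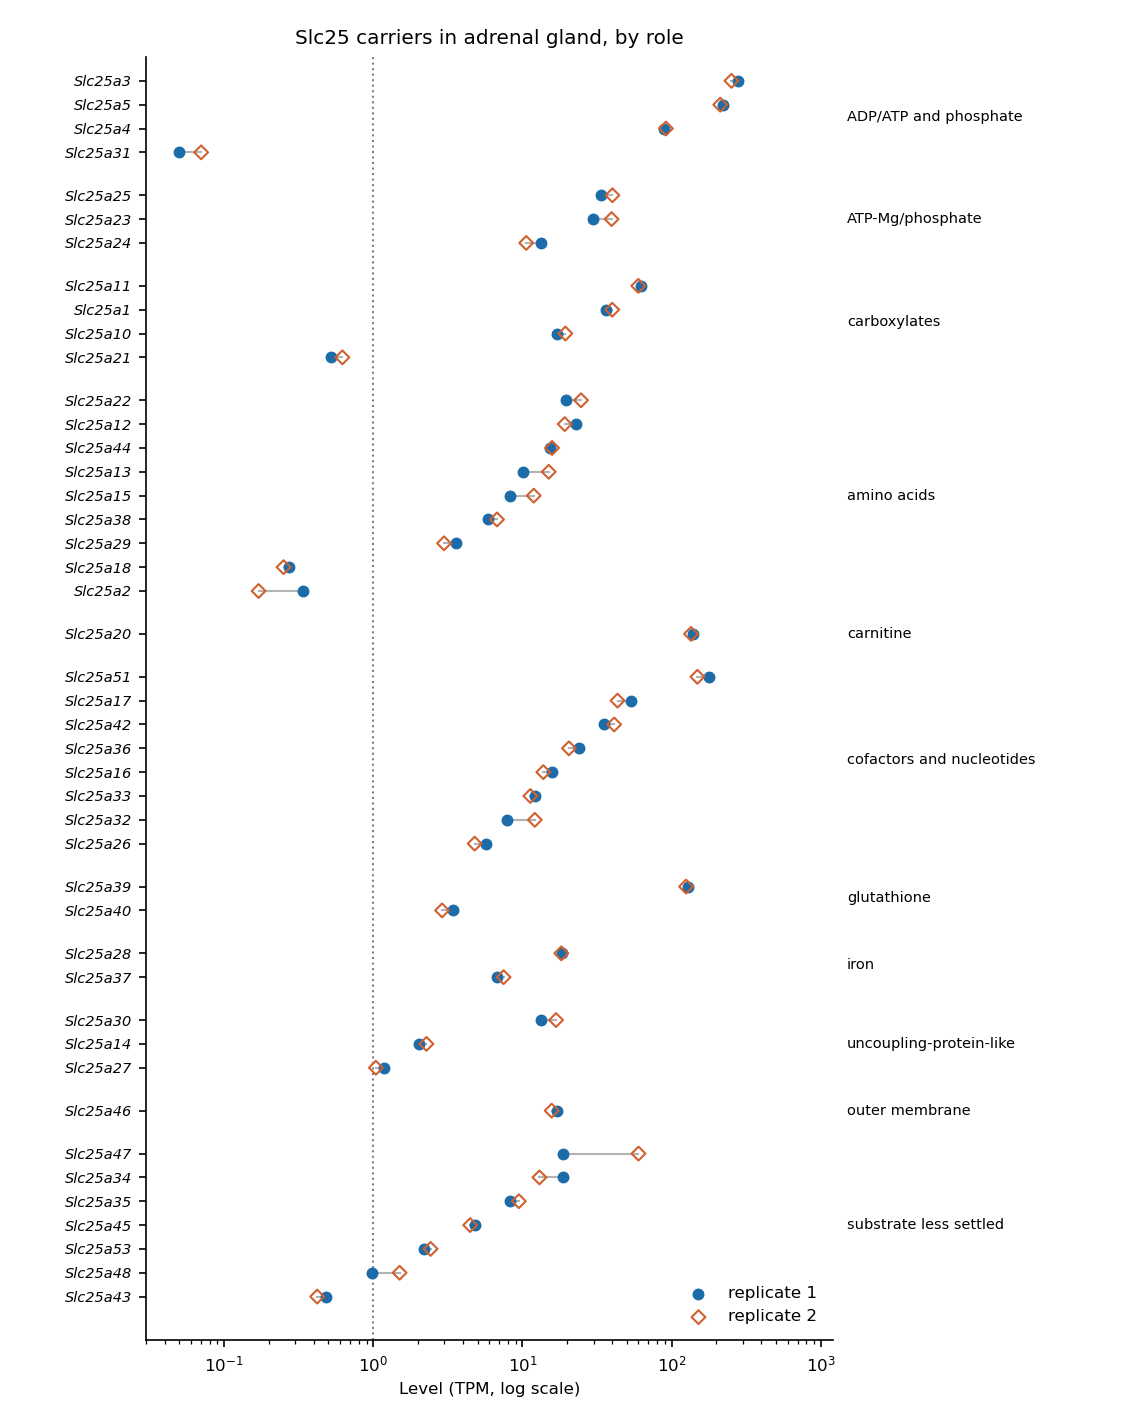
Level of the Slc25 carriers in the adrenal gland in TPM (log scale), grouped by role; filled circles are replicate 1, open diamonds replicate 2, and the dotted line marks 1 TPM. Slc25a41 and Slc25a54, at 0 in both libraries, are not drawn. Most pairs of points lie close together, and the widest gap among the detected carriers is that of Slc25a47, at 18.8 and 60.0 TPM.

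The carriers that serve oxidative phosphorylation were the most abundant group, with 588 and 555 TPM, or 36.0% and 34.1% of the family. Slc25a3 (chr10:91116574-91124059), which brings phosphate into the matrix for ATP synthase, was the highest carrier at 278 and 252 TPM (265 ± 18.3, SD, n = 2). Slc25a5 and Slc25a4 exchange ADP for ATP. Slc25a5 (chrX:36795651-36798807), the form of proliferating and many other tissues, stood at 221 and 212 TPM (216 ± 6.26, SD, n = 2). Slc25a4 (chr8:46206797-46211284), the form known best from heart and muscle, stood at 89.5 and 91.6 TPM (90.5 ± 1.51, SD, n = 2). Slc25a5 thus exceeded Slc25a4 in both libraries, by 1.26 ± 0.07 on the log2 scale of TPM (SD, n = 2), or 2.39-fold. Slc25a31, the form known from testis, had 4 and 5 counts, or 0.0500 and 0.0700 TPM. Of the 6 germ cell markers, Prm1, Tnp1 and Acrv1 were at 0, while Sycp3 had 15 and 21 counts, Dazl 5 and 3 and Ddx4 4 and 5. For scale, the ATP synthase subunit genes Atp5b and Atp5a1 stood at 1629.8 and 1659 TPM and at 609 and 586 TPM.

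The use of the Slc25a3 exons printed above was read from the 3 transcripts that carry the full coding sequence; this pair was chosen after its values were seen. In the transcript table derived from alignments, the exon A form (Slc25a3-206) had 8.33 and 16.4 TPM. The exon B forms (Slc25a3-201 and Slc25a3-203) had 243 and 206 TPM. Exon A thus made up 3.32% and 7.37% of these transcripts, and exon B the rest. The second transcript table, made directly from the reads, put exon A at 9.11% and 11.7%. Exon B was the main form in both tables and libraries. The exon A share was higher in replicate 2 in both tables, but its TPM differed 1.97-fold in one and 1.08-fold in the other. The skeletal muscle markers, 7 of 7 more than 2-fold higher in replicate 2 (median 2.68-fold), moved with it, and their part in this share was not tested.

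The ATP-Mg/phosphate carriers set the total adenine nucleotide content of the matrix, and 3 of them are switched by cytosolic calcium. Slc25a25 stood at 33.4 and 40.1 TPM, and Slc25a23 at 29.9 and 39.6 TPM. Their ranges overlapped, and their log2 ratio of 0.09 ± 0.10 (SD, n = 2) did not put one above the other. Slc25a24 was lower, at 13.3 and 10.6 TPM. The calcium-independent Slc25a41 had no counts in either library, with a floor of 3 counts per library, although it lies 2056 bases from Slc25a23 on chromosome 17. Slc25a54, a relative of Slc25a24 that lies 6461 bases from it on chromosome 3, was also at 0 in both libraries under the same floor.

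Among the carboxylate carriers, Slc25a11 led. It exchanges oxoglutarate for malate and is the partner of the aspartate carriers in the malate-aspartate shuttle, and it had 62.7 and 59.8 TPM (61.3 ± 2.08, SD, n = 2). Slc25a1, which exports citrate and so feeds cytosolic acetyl-CoA for sterol and fatty acid synthesis, had 36.5 and 40.0 TPM. Slc25a10, the dicarboxylate carrier, had 17.0 and 19.4 TPM, with Slc25a11 3.37-fold above it (4.36-fold in the second table). Slc25a21, the oxodicarboxylate carrier, had 30 and 42 counts and stayed under 1 TPM. Acly, which cleaves the exported citrate, stood at 193 and 183 TPM, and the shuttle enzymes Mdh1 and Mdh2 at 209.7 and 195 TPM and at 342 and 349 TPM.

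Slc25a20, the only member listed for carnitine, exchanges acylcarnitines for carnitine and so admits fatty acids to β-oxidation. It had 139 and 135 TPM (137 ± 3.43, SD, n = 2), the fourth level of the family. The enzymes on either side of it stood at 86.5 and 92.1 TPM (Cpt1a), 176 and 184 TPM (Cpt1b) and 87.3 and 89.4 TPM (Cpt2). Cpt1b is the form known from muscle and brown fat.

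Of the 9 amino acid carriers 7 were detected, and they summed to only 86.2 and 96.7 TPM. The glutamate carrier Slc25a22 had 19.5 and 24.7 TPM, and its paralog Slc25a18 had 18 and 17 counts. Slc25a12 and Slc25a13 are the calcium-regulated aspartate/glutamate carriers, the second being the form known from liver. They differed in opposite directions between the libraries: Slc25a12 had 22.9 and 19.2 TPM, and Slc25a13 10.1 and 15.0 TPM. At gene level, the log2 ratio of Slc25a12 over Slc25a13 was therefore 1.18 in replicate 1 and 0.35 in replicate 2. Slc25a44, which carries branched-chain amino acids, had 15.4 and 15.8 TPM. The ornithine carrier Slc25a15, part of the urea cycle, had 8.20 and 11.9 TPM, while its paralog Slc25a2 had 16 and 8 counts. Slc25a38, which supplies glycine for haem synthesis, had 5.86 and 6.75 TPM, and Slc25a29, a carrier of basic amino acids, 3.61 and 2.98 TPM.

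All 9 carriers of cofactors and nucleotides were detected, and they formed the second group in abundance at 379.8 and 352 TPM. Slc25a51 (chr4:45395923-45408766), which brings NAD+ into the matrix, supplied much of this with 179 and 149 TPM (164 ± 21.7, SD, n = 2). Its expected counts were not whole. The peroxisomal carrier Slc25a17 had 53.4 and 43.4 TPM. The coenzyme A carrier Slc25a42 stood at 35.0 and 41.2 TPM, and Slc25a16, linked to coenzyme A as well, at 15.7 and 13.8 TPM. Slc25a36 and Slc25a33 carry pyrimidine nucleotides and had 23.8 and 20.5 TPM and 12.2 and 11.3 TPM. Slc25a32, needed for folate and flavin in the matrix, had 7.92 and 12.1 TPM, and the S-adenosylmethionine carrier Slc25a26 had 5.67 and 4.78 TPM.

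The paired glutathione carriers were far apart. Slc25a39 had 128 and 125 TPM (127 ± 2.14, SD, n = 2) and Slc25a40 had 3.42 and 2.89 TPM, a 40.3-fold difference (5.33 ± 0.15 on the log2 scale, SD, n = 2). The second table put this difference at 57.9-fold. Their coding sequences were 53.1% identical. The mitoferrins, which bring iron into the matrix, were closer: Slc25a28, the broadly expressed form, had 18.5 and 18.2 TPM, and Slc25a37, the erythroid form, 6.75 and 7.47 TPM. Ferrochelatase, the gene Fech, which inserts that iron into haem, stood at 45.1 and 49.7 TPM. The erythroid gene Alas2 stood at 18.5 and 21.8 TPM, and haemoglobin Hba-a1 at 1201 and 1281 TPM; their part in the level of Slc25a37 was not tested.

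The members named for their likeness to uncoupling proteins were low, with 13.3 and 16.8 TPM for Slc25a30, 2.01 and 2.27 TPM for Slc25a14 and 1.17 and 1.04 TPM for Slc25a27. Slc25a46, the outer-membrane member that acts in mitochondrial shape, had 17.0 and 15.7 TPM. Of the 8 members with a less settled substrate, 5 were detected. Slc25a47, known as a liver carrier, had 18.8 and 60.0 TPM and Slc25a34 18.7 and 13.0 TPM. The other detected ones were Slc25a35 at 8.31 and 9.46 TPM, Slc25a45 at 4.77 and 4.46 TPM and Slc25a53 at 2.19 and 2.42 TPM. Slc25a48 reached 1 TPM in replicate 2 only, with 118 and 182 counts. Slc25a43 had 18 and 17 counts.

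Carriers of the same superfamily that do not bear the Slc25a name were all detected, 5 of 5. Ucp1, the uncoupling protein of brown fat, stood at 1566 and 1149 TPM, against 1631 and 1629 TPM for the sum of the 47 members. Ucp2 had 176 and 160.1 TPM, Mtch2 137 and 137 TPM, Mtch1 112 and 109.8 TPM, and Ucp3 13.7 and 11.6 TPM. Inner-membrane transporters of other families were detected in 20 of 20 cases, with the pyruvate carrier subunits Mpc2 at 128 and 132 TPM and Mpc1 at 108 and 128 TPM. The outer-membrane channels and import components were detected in 12 of 12 cases, with Vdac1 at 109 and 109.6 TPM. The enzymes listed as partners of carriers were detected in 28 of 28.

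How far each carrier lay apart between the libraries was measured as the ratio of replicate 2 over replicate 1 in TMM-scaled expected counts, with an exact binomial (Clopper-Pearson) 95% interval that covers counting error only. A mean of at least 100 counts was met by 39 carriers, a different set from the 39 detected: Slc25a48 was in and Slc25a27 out. Of these 39, 20 were higher and 19 lower in replicate 2, beside 51.0% of all 13188 genes lower at that count minimum. The median ratio was 1.01 for carriers and 0.996 for all genes, and 31 carriers lay within 1.25-fold. Scaling by the library total or by the spike-ins put the median carrier below 1, by 0.07 and 0.05 on the log2 scale. The typical distance in either direction was 1.13-fold for carriers and 1.09-fold for all genes. The interval lay above 1 for 14 carriers and below 1 for 8. Neither these counts nor that within 1.25-fold were made for all genes, so they name no trait particular to carriers.

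**Figure D2:**
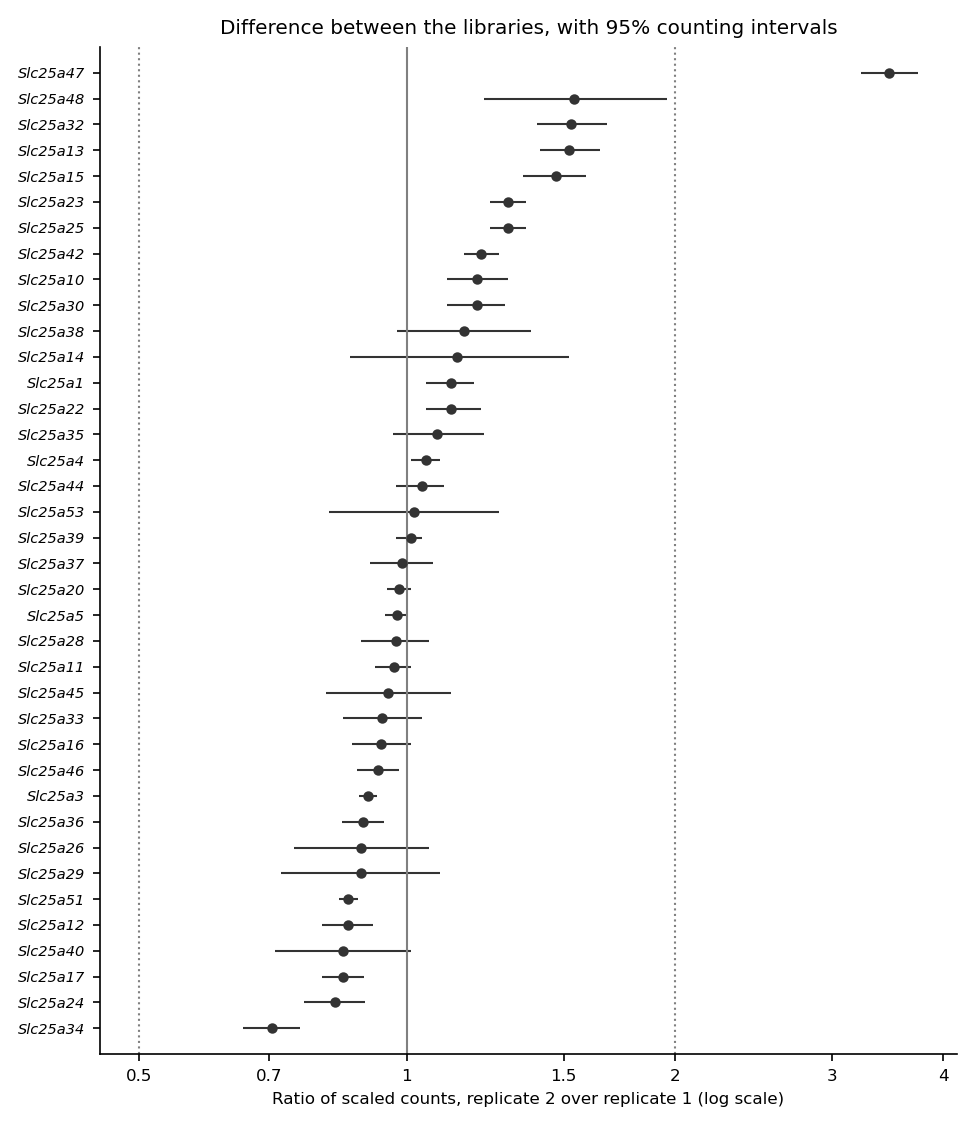
Ratio of replicate 2 over replicate 1 (log scale) for 38 carriers with a mean of at least 100 counts; points are ratios of TMM-scaled counts, bars the 95% counting intervals, the solid line marks 1 and the dotted lines 2-fold. Slc25a47 alone lies beyond 2-fold, and Slc25a34 has the lowest ratio.

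Slc25a47 (chr12:108836046-108856815) was the only 1 of these 39 carriers more than 2-fold higher in replicate 2, beside 4.37% of all genes. It had 927 and 3227 counts, a ratio of 3.48 (3.24 to 3.75). The 8 hepatocyte markers ranged from 2.14-fold to 3.86-fold with a median of 3.21-fold, so Slc25a47 lay within their range. Albumin (Alb) differed 3.06-fold and fibrinogen (Fgb) 3.86-fold. The part of liver RNA in the level of Slc25a47 was not tested. Its neighbour Slc25a29 lies on the opposite strand, with 162 bases between the annotated bounds of the genes, and had a ratio of 0.888 (0.722 to 1.09). The printed Slc25a47 start, at position 108851129, lies inside those bounds. Transcripts that begin within 100 bases of the printed Slc25a47 start, Slc25a47-201 and Slc25a47-202, held 15.6 and 57.1 of its 18.8 and 60.0 TPM. In the second table they held a smaller part, 21.2 and 72.3 of 35.5 and 110.0 TPM.

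At 1.5-fold, 4 of the 39 carriers with a mean of at least 100 counts were higher in replicate 2, beside 7.62% of all genes. So small a count names no trait particular to carriers. They were Slc25a47, Slc25a48 at 1.54 (1.22 to 1.96), Slc25a32 at 1.53 (1.40 to 1.68) and Slc25a13 at 1.52 (1.41 to 1.65). Slc25a15 followed at 1.47 (1.35 to 1.59). Slc25a13 and Slc25a15 serve the urea cycle, through aspartate and ornithine, whereas Slc25a32 and Slc25a48 are not among the listed amino acid carriers. The other aspartate carrier, Slc25a12, was lower in replicate 2, at 0.858 (0.803 to 0.917). The enzymes of the urea cycle were higher in replicate 2: Otc 2.44-fold, Arg1 2.39-fold, Cps1 1.68-fold, Ass1 1.25-fold and Asl 1.19-fold. Glud1 and Got2, which handle glutamate in the matrix, differed 1.59-fold and 1.36-fold. All 28 partner enzymes together had 18 higher and 10 lower, a median of 1.03-fold. The hepatocyte markers given above were higher in replicate 2 too, and their part in any of these levels was not tested.

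In the other direction, 0 of the 39 carriers with a mean of at least 100 counts were more than 2-fold lower. At 1.5-fold, 0 were lower too, beside 0.114% and 0.849% of all genes at these 2 thresholds. Among these carriers Slc25a34 had the lowest ratio, with 1764 and 1242 counts and 0.705 (0.655 to 0.758). It was followed by Slc25a24 at 0.830 (0.767 to 0.898), Slc25a17 at 0.848 (0.804 to 0.895), Slc25a40 at 0.848 (0.712 to 1.01) and Slc25a12 at 0.858 (0.803 to 0.917). For Slc25a40 the interval included 1. Beside Slc25a34, the brown adipocyte list had 3 of 7 genes higher and 4 lower, a median of 0.990. Among its lower members were Ppargc1a, a coactivator of mitochondrial genes, at 0.575, Elovl3 at 0.691 and Ucp1 at 0.745, whereas Cidea and Cox8b were at 1.03 and 1.04. All 10 cortex markers (median 0.908) and all 8 chromaffin markers (median 0.860) were lower in replicate 2 too, and the part of any of these in the carrier's level was not tested.

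**Figure D3:**
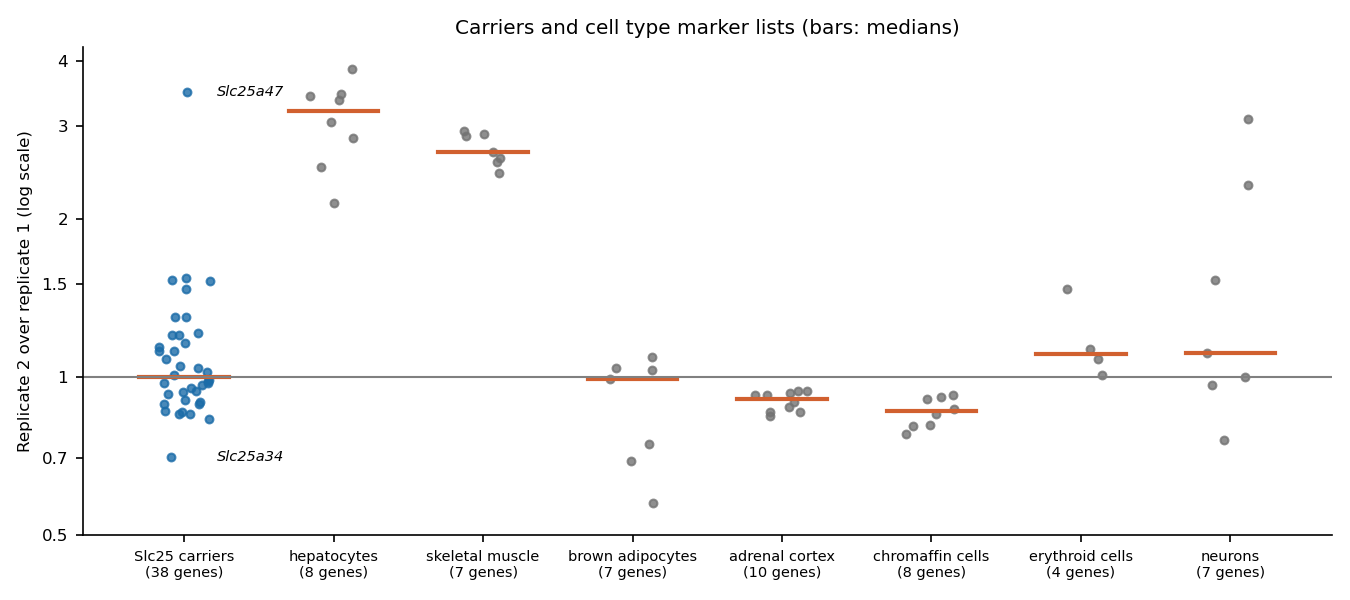
Ratio of replicate 2 over replicate 1 (log scale) for carriers (blue) and genes of cell type marker lists (grey) with a mean of at least 100 counts; each point is a gene, horizontal bars are medians, and sideways scatter has no meaning. Slc25a47 lies among the hepatocyte markers, while most carriers lie between 0.7 and 1.5, and the cortex and chromaffin markers all lie below 1.

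The 6 most abundant carriers lay within 1.25-fold, Slc25a51 farthest from 1 among them. Slc25a3 had a ratio of 0.905 (0.884 to 0.927), Slc25a5 0.974 (0.946 to 1.00), Slc25a51 0.860 (0.840 to 0.881), Slc25a20 0.980 (0.951 to 1.01), Slc25a39 1.01 (0.972 to 1.04) and Slc25a4 1.05 (1.01 to 1.09). The direction of Slc25a4 depended on the scaling, since by library total it was 0.994. The calcium-switched pair Slc25a25 and Slc25a23 was higher in replicate 2 by the same ratio, 1.30 (1.24 to 1.36) in each. Slc25a24 of the same group was lower, so the group did not go one way. Likewise, of the 9 cofactor and nucleotide carriers 3 were higher and 6 lower.

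Transcript usage was read for carriers of at least 20 TPM in which 2 or more transcripts each held at least 10% of the gene's TPM; 8 of 17 met this. The aspartate/glutamate carrier Slc25a12 stood apart in what its main transcript was. Slc25a12-207, annotated as a target of nonsense-mediated decay, held 66.7% and 68.3% of its TPM. In the second table it held 46.2% and 51.3%, still the highest share. Its annotated coding part has 261 bases, against 2031 in the full-length Slc25a12-206, which held 10.6% and 10.4% (10.9% and 11.7% in the second table). The gene-level TPM of Slc25a12 is therefore not the level of its full-length message. At 2.42 and 2.00 TPM, Slc25a12-206 lay below Slc25a13 at 10.1 and 15.0 TPM, although Slc25a12 was the higher at gene level. Protein-coding transcripts held 94.2% and 95.8% of the Slc25a13 TPM. Over all 39 detected carriers the median share of TPM in protein-coding transcripts was 90.4% and 91.9%. Slc25a12, Slc25a28 at 40.1% and 44.7% and Slc25a53 at 20.1% and 16.6% were under 50% in both libraries, although the second table put Slc25a28 at 58.5% and 59.0%.

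For Slc25a25 both tables had Slc25a25-205 first, with 54.0% and 58.3% in one and 57.3% and 66.7% in the other. That transcript begins at the most upstream of the 3 listed promoters, chr2:32451421-32451720. The promoter with the TGACGTCA match, chr2:32424017-32424316, is that of Slc25a25-203. It held 30.6% and 31.2% in the table from alignments but 4.54% and 1.68% in the second. Slc25a23-201 was likewise first in both tables, with 85.3% and 82.3% and with 76.8% and 74.1%.

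For 3 of the other carriers described here, the tables gave a different first transcript in at least 1 library. The NAD+ carrier Slc25a51 was divided between Slc25a51-201 (41.4% and 44.4%) and Slc25a51-205 (38.8% and 40.4%) in the table from alignments, but the second table put Slc25a51-202 first, at 36.9% and 46.7%. Slc25a22-203 held 63.8% and 54.5%, and 15.8% and 1.39% in the second table, where Slc25a22-201 came first with 26.9% and 30.4%. For Slc25a42 the first transcript was Slc25a42-201 in both tables, but its share differed, at 79.1% and 79.8% and at 47.3% and 48.8%. For Slc25a36, Slc25a36-202 led at 44.3% and 49.5%. In the second table it had 23.9% and 29.4%, beside 32.7% and 27.0% for Slc25a36-201, so the first transcript differed between the tables in replicate 1 only.

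**Figure D4:**
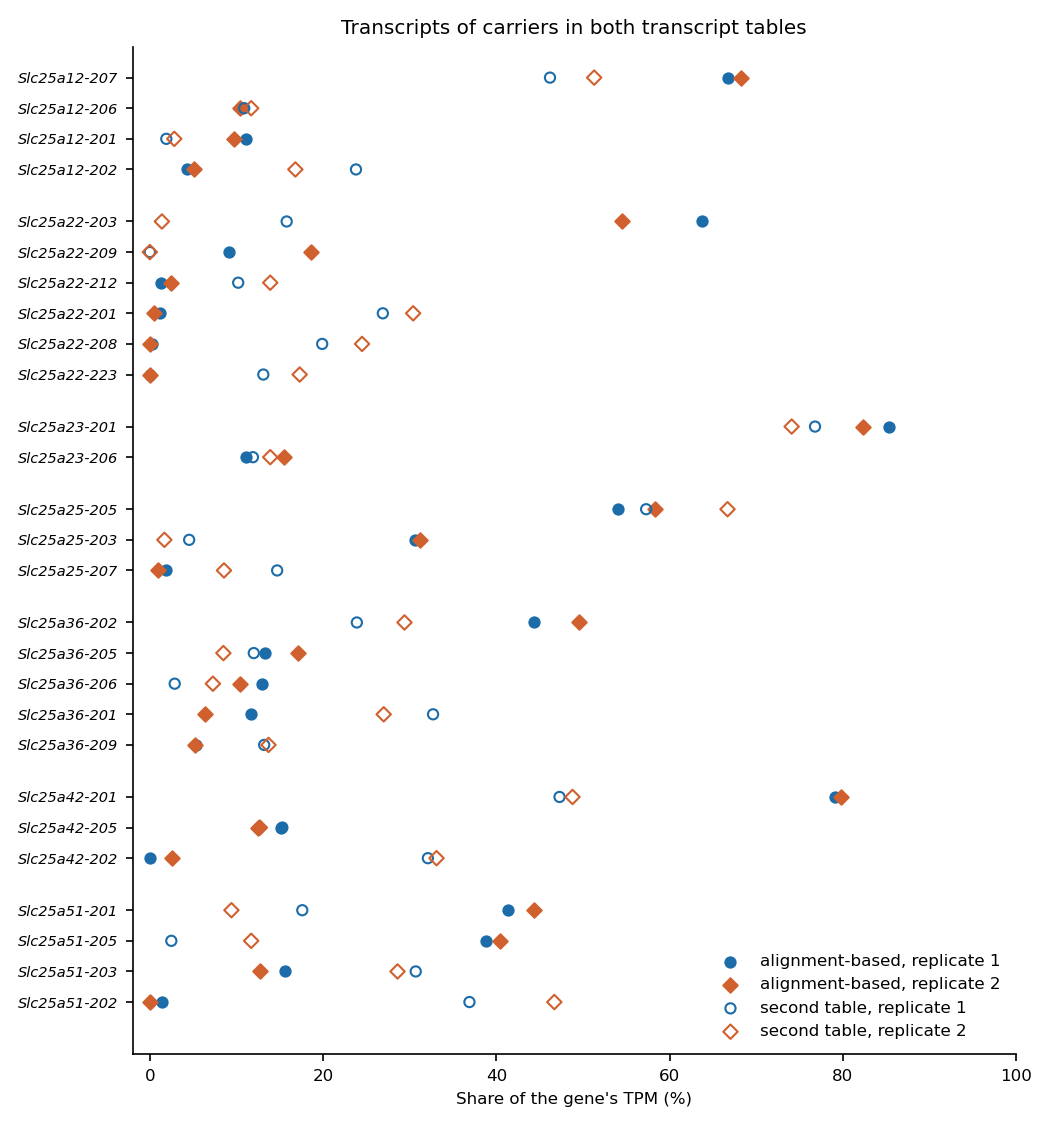
Share of each gene's TPM (percent) held by the transcripts of 7 carriers; filled symbols are the table derived from alignments, open symbols the second table, circles replicate 1 and diamonds replicate 2. The tables lie far apart for Slc25a42-201, Slc25a25-203 and several transcripts of Slc25a22 and Slc25a51. Within the second table the libraries also differ, as for Slc25a22-203 at 15.8% and 1.39%.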

How the data were processed

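Both libraries are total RNA of adrenal gland from a directional kit, as the labels' protocols state. Per the file headers, the authors deposited expected counts per gene and per transcript, without normalisation, and TPM computed across genes, tRNAs and spike-ins, with column names of RSEM. A second deposited transcript table holds estimated counts and TPM with column names of kallisto. The assembly is mm10, per the labels. The programs behind the tables are not named in the labels or headers. Reads of CAST/EiJ alleles were counted against this reference, and what that does to a carrier's level was not tested.

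Symbols, biotypes and coordinates came from GENCODE M21. Expected counts of 5 carriers (Slc25a3, Slc25a5, Slc25a51, Slc25a36 and Slc25a37) had a fraction in at least 1 library, and the other 42 were exactly whole as deposited, with no tolerance. The TMM factors of edgeR 4.0.16 scaled the counts, and log2 ratios had 0.5 counts added. Levels on a log scale used log2(TPM + 0.1). Where no count was seen, 3 counts per library are allowed. Intervals and floors cover counting error only. Replicates of 1 library each leave no residual spread, so no test was run. Every carrier of at least 1 TPM in both libraries was named, except 1. That carrier stays in the counts and is not reported or drawn by name here. The 5 highest and 5 lowest ratios among carriers with a mean of at least 100 counts were named too. The symbol rule that set the members used no measured value, but it and the lists were chosen with earlier results of these data known. Coding identity came from global alignment (biopython 1.88). The proteins planned for print were replaced by coding stretches. Scaling and ratios were tried on simulated counts with counting error only and equal numbers of genes raised and lowered. In the real libraries 576 genes were more than 2-fold higher in replicate 2 and 15 lower, and the simulation did not cover that imbalance. Alternatives used DESeq2 1.42.0 size factors, other totals, thresholds, and the second table. R 4.3.3 and Python 3.11.15 were used.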

Additional observations from a re-analysis of the deposited data

How the results depend on the processing

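The number of detected carriers stayed between 32 (5 TPM in both libraries) and 41 (0.5 TPM), with 40 from replicate 2 alone and 39 from replicate 1 alone. The median level, 3.77 on the scale log2(TPM + 0.1), was 3.86 with a pseudocount of 1 and 3.23 as a mean. The ratio of Slc25a47 lay between 3.30 and 3.57 under every scaling and in the second table. At 1.5-fold, 4 carriers were apart in place of 1. Among the 39 ratios, 11 moved beyond their counting interval by library total and 6 by spike-ins, and Slc25a4 reversed to 0.994 by library total. The log2 ratio of Slc25a5 over Slc25a4 was 1.06 in the second table and 1.21 to 1.30 in single libraries. Of 13 paralog ratios, 6 moved in the second table by at least the SD between libraries, and 0 reversed. The exon A share of Slc25a3 averaged 5.34% in the table from alignments and 10.4% in the second, an alternative chosen after seeing the data. No ratio left its interval with DESeq2 size factors or in the second table. TPM values moved in the second table for all 39 detected carriers. They also moved when rescaled over nuclear protein-coding genes. That was fixed in advance, because the rescaling multiplies every carrier of a library by the same factor. Of the 10 highest carriers, 9 were also among the 10 highest of the second table. The cause of the shifts in the second table was not tested. Transcript shares limit what can be said: 30 of 32 moved by more than the spread between libraries. No paired analysis was possible because the libraries form a single group.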

Other observations

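The 47 carriers lie on 19 chromosomes, 5 of them on chromosome 11 and 4 on the X chromosome. There were 4 pairs of carriers within 100 kb of each other. Slc25a43 lies 18448 bases from Slc25a5 on the X chromosome, and only Slc25a5 was detected. In the pairs Slc25a23 with Slc25a41 and Slc25a24 with Slc25a54, only the first member had counts. In the pair Slc25a29 with Slc25a47, both were detected, with ratios between the libraries of 0.888 and 3.48.

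Several carriers share exon bases with an expressed gene on the opposite strand. Slc25a35 shares 1151 bases with Rangrf, which had 7.36 and 6.78 TPM. Slc25a25 shares 379 bases with Naif1, at 1.18 and 1.21 TPM. Slc25a11 shares 189 bases with Rnf167, at 22.2 and 24.5 TPM, and Slc25a26 shares 144 bases with Lrig1, at 4.67 and 7.16 TPM. Whether the authors' counting used strand is not given in the sources used here, so the levels of these carriers are less certain there. The lowest carrier with such a neighbour, Slc25a18 at 18 and 17 counts, shares 32 bases with Atp6v1e1, at 78.6 and 74.9 TPM.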
